A study of Mus musculus with 4 samples.

Results

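The expression of 9 genes was examined in mouse retina after knockdown of miR-124-3p: the PDGF (platelet-derived growth factor) ligands Pdgfa, Pdgfb, Pdgfc and Pdgfd, the receptors Pdgfra and Pdgfrb, the astrocyte factor Pax2, and the pericyte markers Rgs5 and Cspg4. They were selected by gene symbol from the 48897 genes in the deposited table, and all 9 passed the filter on low counts that left 17766 genes for testing. Pdgfa and Pdgfra are also among the genes that the study itself picked on these libraries, so their direction here is not independent evidence. The strain is C57BL/6 in the labels and C57BL/6J in the study's methods, and the genotype is written as "wide type". On postnatal day 3, the left eye received 0.6 nmol of miR-124-3p antagomir in 1 μl, injected into the vitreous (anti-miR-124 group), and the right eye received a scrambled sequence at the same dose (NC group). An antagomir is a modified antisense oligonucleotide that binds a mature microRNA. Whole retinas were pooled on postnatal day 9, 6 days after the injection, from at least a pair of litters per group, and each group had 2 libraries. All anti-miR-124 libraries came from left eyes and all NC libraries from right eyes, so the treatment and the eye cannot be told apart. The table numbers its columns by pair, with 1 library of each group in a pair. The libraries of the first pair are named NC-A and KD-A (KD for knockdown, the anti-miR-124 group) and those of the other pair NC-B and KD-B.

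PDGFs are secreted dimers that activate a pair of receptor tyrosine kinases. PDGF-A and PDGF-C act mainly through receptor alpha, PDGF-D mainly through receptor beta, and PDGF-B binds both. In the developing retina, PDGF-A released by ganglion cells acts on receptor alpha of the astrocytes that spread from the optic nerve head and carry the transcription factor Pax2. PDGF-B released by vessel sprouts recruits pericytes, the contractile cells around capillaries, which carry receptor beta, the proteoglycan NG2 (Cspg4) and the G-protein regulator Rgs5.

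Between 16317239 and 18726963 reads were counted per library. Photoreceptor genes were abundant in every library, as the tissue label requires, with a TPM (a transcript level scaled to gene length and to the same total in every library) of 1618 to 1793 for Crx and 1713 to 2086 for Nr2e3. The libraries differed in markers of other cells. In NC-A, 2.09% of the counts fell on 21 lens genes, against 0.00565% to 0.00803% in the others. KD-B had a summed TPM of 1238 for 20 microglia genes, against 274 to 347 elsewhere. The summed TPM of 11 ganglion cell genes was 1287 in NC-A, 1839 in KD-A, 1640 in NC-B and 1225 in KD-B, and all 11 were higher in KD-A than in NC-A and lower in KD-B than in NC-B. The part of these differences in the results below was not tested. In bulk tissue, fewer cells of a type and less RNA per cell cannot be told apart.

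Rgs5 had the highest level of the 9 genes, with a mean TPM of 80.8 ± 12.6 (SD, n = 4 libraries), followed by Pdgfra at 40.0 ± 4.97. Among the ligands, the mean TPM was 15.3 ± 2.29 for Pdgfa, 7.55 ± 0.53 for Pdgfc, 4.15 ± 0.76 for Pdgfd and 2.70 ± 0.32 for Pdgfb. Pdgfrb, at 5.85 ± 0.43, lay between Pdgfc and Pdgfd. Each of these genes was above the next in all 4 libraries without overlap of their ranges. The lowest levels were those of Pdgfb, Cspg4 (2.33 ± 1.14) and Pax2 (2.30 ± 0.64), whose ranges overlapped, so these neighbours did not differ beyond their spread. Pdgfa made up between 48.0% and 56.7% of the summed ligand TPM, and Pdgfb between 8.60% and 9.42%.

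To determine whether the knockdown group differed from the control group, read counts were compared with edgeR's quasi-likelihood test with TMM normalization, which sets the libraries on a common scale through the bulk of genes. After adjustment over all genes tested (Benjamini-Hochberg), the p-values of the 9 genes were all above 0.05. No gene of the table passed this test (0.0% of all genes tested), while 694 genes had an unadjusted p-value under 0.05 (3.91%), and DESeq2 called 36 genes (0.203%), none of them among the 9. Pdgfra (higher) and Rgs5 (lower) had an unadjusted p-value under 0.05, which did not hold in every setting for either gene. By TPM, the KD library exceeded its NC partner in both pairs for 4 of the 9, namely Pdgfa, Pdgfb, Pdgfra and Pax2 (32.3% of all genes tested), and Pdgfrb and Rgs5 were lower in both (14.8%). The lens transcripts in NC-A take a share of its TPM total, and the log2 TPM ratio of pair A had a median of 0.10 over the tested genes, against -0.00027 for pair B. By TMM-normalized counts, 3 genes were higher in both pairs (22.8% of all genes tested) and 3 were lower (24.0%), with Pax2 no longer in the first group and Pdgfc joining the second. The ratios between libraries given below are therefore on the TMM scale. On it, both anti-miR-124 libraries lay above both NC libraries for Pdgfa and Pdgfra (16.5% of all genes tested) and below them for Pdgfc, Pdgfrb and Rgs5 (16.8%), and the groups overlapped for the other 4 genes.

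**Figure D1:**
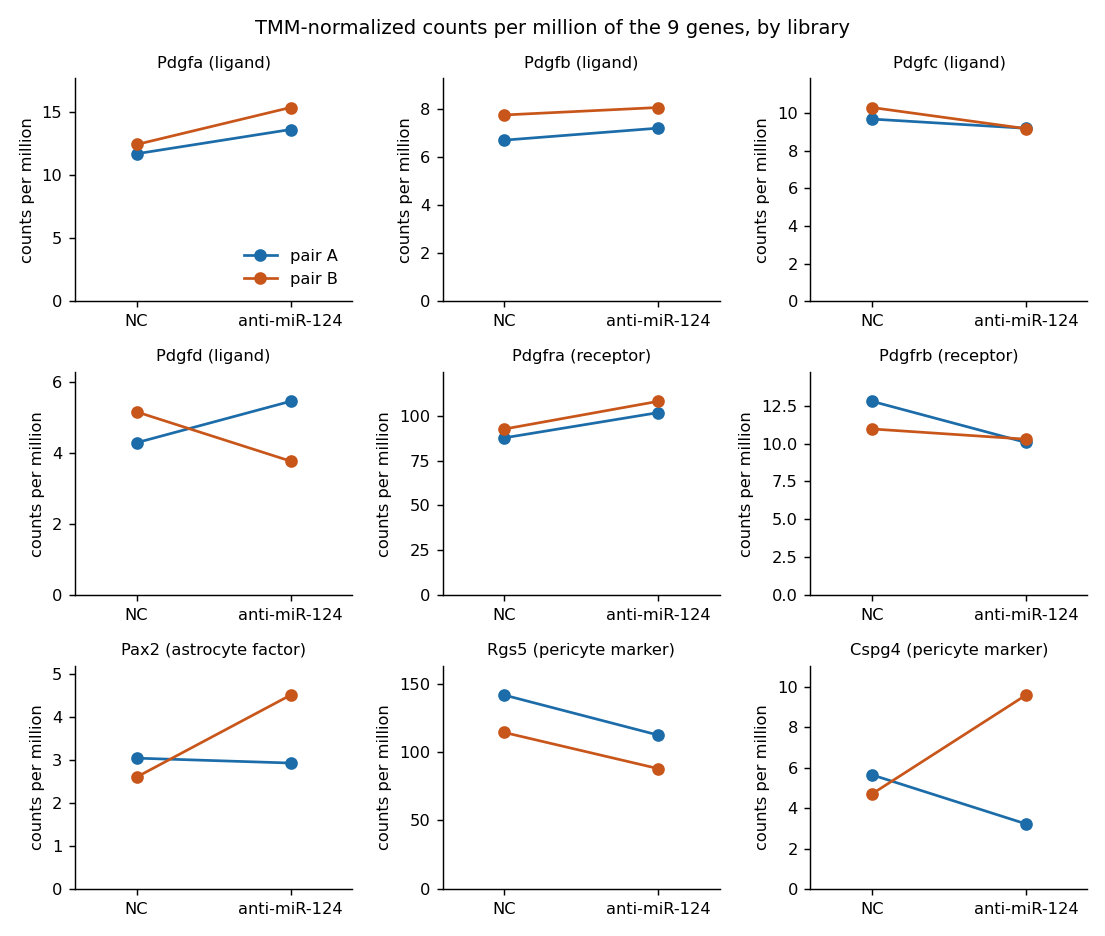
Each panel shows 1 gene, with the NC and anti-miR-124 libraries on the x axis and TMM-normalized CPM (counts per 1000000) on the y axis, which starts at 0. Points are single libraries and lines join the libraries of a pair (pair A blue, pair B orange). The lines of Pdgfra and of Rgs5 run nearly in parallel, while those of Pdgfc, Pdgfd, Pdgfrb, Pax2 and Cspg4 cross.

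Pdgfra, the receptor of astrocytes and of glial progenitors, lies on chromosome 5 from 75151400 to 75198211 on the plus strand. Gene positions here were read from that table, where 99.8% of the 36837 symbols shared with RefSeq overlap the GRCm38 position of the same symbol, although the labels name mm9. The study measured Pdgfra by RT-qPCR as well, and its primers are shown here because they mark the part of the transcript that assay reads. Capitals mark the bases that lie in exon 17 of the 23 exons of the transcript ENSMUST00000000476.14 (GENCODE M21), and both primers are written 5′ to 3′.
Pdgfra forward primer: tccatgctagACTCAGAAGTCA
Pdgfra reverse primer: tcccggtggacacaATTTTTC
The forward primer crosses the junction of exons 16 and 17 and the reverse primer that of exons 17 and 18, all within the coding sequence. The product of 140 bases runs from 75183133 to 75185964 on chromosome 5 of GRCm38, introns included, and 2 of the 9 annotated Pdgfra transcripts hold both primers. The RT-qPCR values were not analysed here.

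Pdgfra had 1413 counts in NC-A, 1738 in KD-A, 1673 in NC-B and 2038 in KD-B. Both anti-miR-124 libraries were above both NC libraries. The log2 ratio of anti-miR-124 to NC was 0.21 in pair A (95% counting interval 0.11 to 0.32) and 0.22 in pair B (0.13 to 0.32). Between the libraries of 1 group, the log2 ratio of pair B to pair A was 0.08 for NC and 0.09 for anti-miR-124, so the difference between groups was larger than that between replicates. The fitted log2 fold change was 0.22 (SE, standard error of the fit, 0.07, 95% interval 0.04 to 0.40, unadjusted p = 0.0227, adjusted p = 0.989, edgeR), which is 16.4% higher in the anti-miR-124 group. It was 0.18 without NC-A, which holds the lens transcripts, and also 0.18 without KD-B, with unadjusted p-values of 0.142 and 0.0718 from the same edgeR test, and without NC-B the unadjusted p-value was 0.0526. Lens epithelium is known to carry receptor alpha, and the part of the lens transcripts in the Pdgfra counts of NC-A was not tested.

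Pdgfrb, the pericyte receptor, had 206 counts in NC-A, 172 in KD-A, 198 in NC-B and 194 in KD-B. Both anti-miR-124 libraries were below both NC libraries, and these libraries lay within 0.03 of each other on the log2 scale, while the NC libraries were 0.22 apart. The log2 ratio was -0.34 in pair A (95% counting interval -0.64 to -0.05) and -0.09 in pair B (-0.38 to 0.20). The fitted log2 fold change was -0.22 (SE 0.15, 95% interval -0.58 to 0.14, adjusted p = 0.989, edgeR). It was -0.11 without NC-A. The TPM ratio of Pdgfra to Pdgfrb was 5.28 in NC-A, 7.77 in KD-A, 6.50 in NC-B and 8.08 in KD-B. By TPM the groups overlapped for neither receptor, with Pdgfra higher and Pdgfrb lower. This ratio therefore had to separate the groups and is not a further result.

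**Figure D2:**
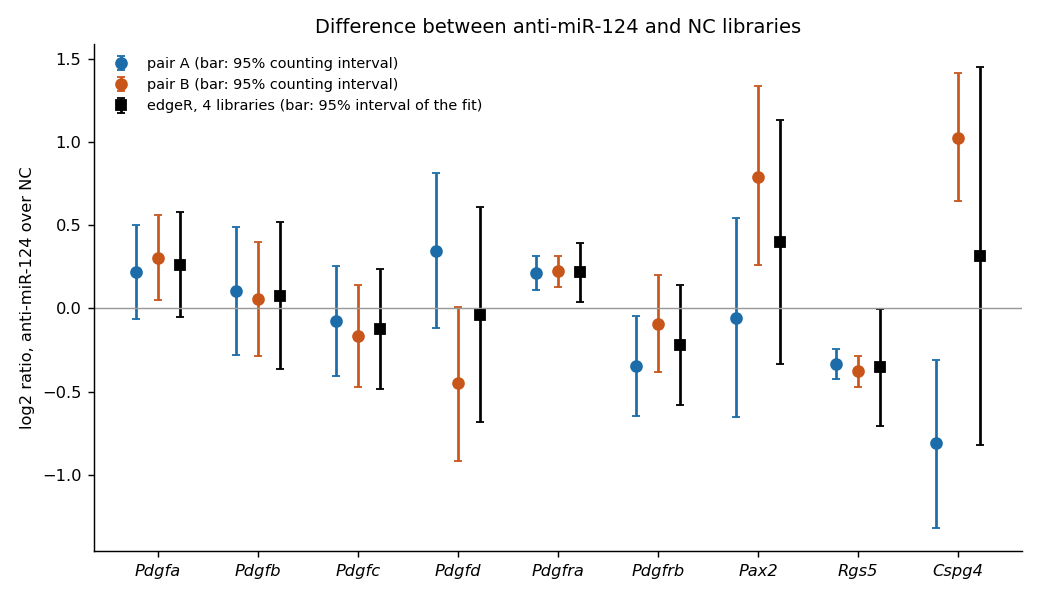
The y axis gives the log2 ratio of anti-miR-124 to NC for each gene on the x axis. Circles are the ratios of TMM-normalized counts within pair A (blue) and pair B (orange), with 95% counting intervals, and black squares are the edgeR estimates over the 4 libraries with 95% intervals of the fit. The interval of the fit lies above 0 for Pdgfra, just below 0 for Rgs5 (-0.71 to -0.00094), and spans 0 for the other genes, and that of Cspg4 is the widest, from -0.82 to 1.45.

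Of the ligands, Pdgfa differed most between the groups. Pdgfa lies on chromosome 5 from 138976381 to 138997686 on the minus strand. It had 188 counts in NC-A, 232 in KD-A, 224 in NC-B and 289 in KD-B. All anti-miR-124 values were above all NC values. The log2 ratio was 0.22 in pair A (95% counting interval -0.06 to 0.50) and 0.31 in pair B (0.05 to 0.56), and the fitted log2 fold change was 0.26 (SE 0.13, 95% interval -0.05 to 0.58, adjusted p = 0.989, edgeR). Ganglion cells are a known source of PDGF-A. Their genes had median log2 ratios of 0.43 (pair A) and -0.48 (pair B), and their part in the Pdgfa values was not tested. An antisense gene on the plus strand, listed as ENSMUSG00000075585.3, shares 2631 bases of its span with Pdgfa and had 179 counts in NC-A, 259 in KD-A, 241 in NC-B and 257 in KD-B. The library kit keeps the strand, but whether the counting used it is not given in the sources used here, so reads of these overlapping genes may not be fully separated.

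Pdgfb, the ligand of vessel sprouts, had 108 counts in NC-A, 123 in KD-A, 140 in NC-B and 152 in KD-B. The groups overlapped, and the log2 ratios of 0.10 in pair A and 0.06 in pair B were smaller than the ratios between the replicates of each group, 0.21 for NC and 0.16 for anti-miR-124. Its fitted log2 fold change was 0.08 (SE 0.19, 95% interval -0.37 to 0.52, adjusted p = 0.989, edgeR). Pdgfb lies on chromosome 15 from 79995865 to 80024778.

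Pdgfc and Pdgfd are secreted in a latent form that proteases such as Plat and Plau open. For Pdgfc, on chromosome 3 from 81035887 to 81214040, the counts were 156 in NC-A, 157 in KD-A, 186 in NC-B and 173 in KD-B. The log2 ratios of pairs A and B were -0.07 and -0.17, each with a counting interval that spans 0, and the fitted log2 fold change was -0.12 (SE 0.15, 95% interval -0.48 to 0.24, adjusted p = 0.989, edgeR). By TPM, its ratio in pair A was 0.03, so its direction there depends on the scaling. Pdgfd, on chromosome 9 from 6168361 to 6534284, had 69 counts in NC-A, 93 in KD-A, 93 in NC-B and 71 in KD-B. It was higher in KD-A than in NC-A and lower in KD-B than in NC-B, with log2 ratios of 0.35 and -0.45. The fitted log2 fold change of Pdgfd was -0.04 (SE 0.27, 95% interval -0.69 to 0.61, adjusted p = 0.997, edgeR).

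Pax2, a transcription factor of the optic stalk and of retinal astrocytes, lies on chromosome 19 from 44745693 to 44837871. It had 49 counts in NC-A, 50 in KD-A, 47 in NC-B and 85 in KD-B. KD-B stood above the other 3, which were nearly level. The log2 ratio was -0.05 in pair A (95% counting interval -0.65 to 0.54) and 0.79 in pair B (0.26 to 1.34). Over both pairs, the fitted log2 fold change was 0.40 (SE 0.31, 95% interval -0.33 to 1.14, adjusted p = 0.989, edgeR), and it was 0.06 without KD-B.

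Gfap was also highest in that library, while most other astrocyte genes differed less. Gja1 and Aqp4, named after their values were seen, were highest there too. Their log2 ratios were -0.80 and -0.14 in pair A and 1.67 and 0.74 in pair B. Of the 11 genes in the astrocyte list, 1 was higher in KD-A than in NC-A and 10 in KD-B than in NC-B, and none had an unadjusted p-value under 0.05 (3.91% of all genes tested). The median log2 ratio of the list was -0.14 in pair A and 0.28 in pair B. Gfap, the intermediate filament of astrocytes that Muller glia also express under stress, had 1496 counts in NC-A, 720 in KD-A, 631 in NC-B and 3764 in KD-B. Pdgfra did not share this pattern, and its TPM ratio to Gfap was 0.487 in NC-A, 1.25 in KD-A, 1.37 in NC-B and 0.279 in KD-B. Fabp7, with the highest level in the list, had a log2 fold change of -0.10 (SE 0.08) and Nr2e1, an orphan nuclear receptor of astrocyte and Muller precursors, of -0.17 (SE 0.13). Microglia genes, at a median log2 ratio of -0.23 in pair A and 1.90 in pair B, moved with the Pax2 and Gfap values, and their part in them was not tested. The defining genes of oligodendrocyte progenitors, which also carry Pdgfra and Cspg4, were near 0, with 3 to 11 counts of Olig1, 4 to 7 of Sox10 and 0 to 8 of Gpr17 per library, and Olig2, which other retinal cells express too, had 49 to 60.

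Rgs5 lies on chromosome 1 from 169655501 to 169695813 and is among the most restricted pericyte transcripts. It had 2281 counts in NC-A, 1919 in KD-A, 2064 in NC-B and 1657 in KD-B. The log2 ratio was -0.33 in pair A (95% counting interval -0.42 to -0.25) and -0.38 in pair B (-0.47 to -0.28), beyond counting error in both. Within each group the library of pair B was lower than that of pair A. The log2 ratio of pair B to pair A was -0.31 for NC (95% counting interval -0.40 to -0.22) and -0.35 for anti-miR-124 (-0.45 to -0.26). Replicates thus differed about as much as the groups did, also beyond counting error. On the TMM scale, NC-B, at 114.3 CPM, was therefore close to KD-A, at 112.4. The fitted log2 fold change was -0.35 (SE 0.15, unadjusted p = 0.0497, adjusted p = 0.989, edgeR), which is a level 0.783 times that of the NC group. With the pair number as a block it was -0.36 (SE 0.07, unadjusted p = 0.0031, adjusted p = 1.0, edgeR), but no source says that equally numbered pools hold the eyes of the same mice. The unblocked value was -0.19 without NC-A, -0.18 without KD-B, -0.50 without NC-B and -0.54 without KD-A. Its unadjusted edgeR p-value was 0.26 without NC-A, 0.188 without KD-B, 0.0566 with DESeq2 size factors and 0.0522 with a minimum mean of 10 counts. Without the filter on low counts the adjusted p-value was 0.0223 in the same edgeR test, where 379 of 31982 genes tested passed. Rgs5 was the only one of the 9 genes to pass after adjustment in any of the 14 alternative settings.

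Cspg4, which encodes NG2, lies on chromosome 9 from 56865104 to 56899870. It had 91 counts in NC-A, 55 in KD-A, 85 in NC-B and 181 in KD-B. The NC libraries were close to each other, and the anti-miR-124 libraries lay on either side of them. The log2 ratio was -0.81 in pair A (95% counting interval -1.32 to -0.31) and 1.03 in pair B (0.65 to 1.42), so the pairs differed in opposite directions, each beyond counting error. The anti-miR-124 libraries were 1.58 apart on the log2 scale. The fitted log2 fold change was 0.32 (SE 0.47, adjusted p = 0.989, edgeR), and it was -0.68 without KD-B and 0.89 without KD-A. The TPM ratio of Cspg4 to Pdgfrb was 0.334 and 0.324 in the NC libraries of pairs A and B, against 0.242 and 0.705 in the anti-miR-124 libraries.

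**Figure D3:**
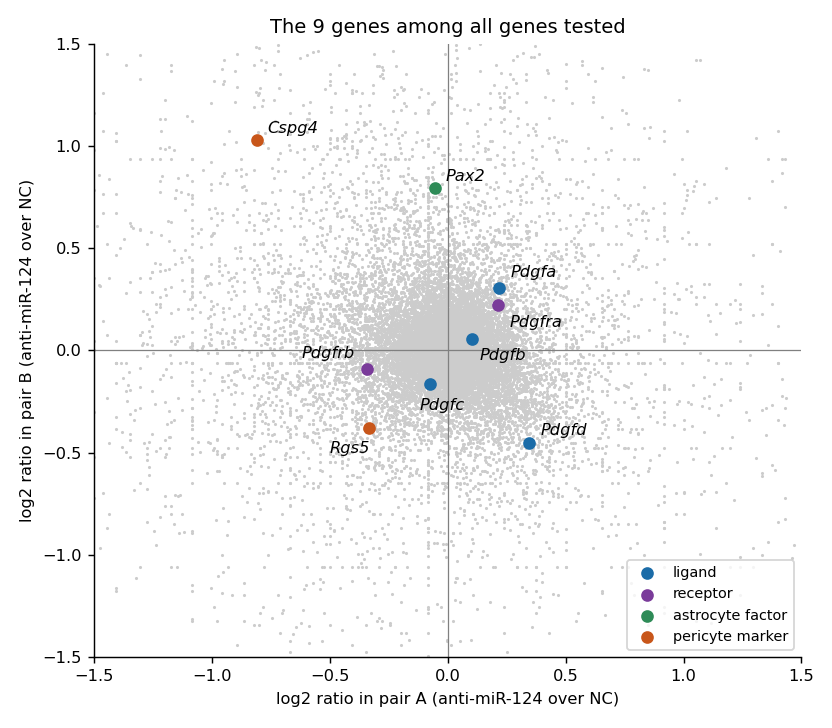
The x axis gives the log2 ratio of anti-miR-124 to NC (TMM-normalized counts) in pair A and the y axis that in pair B. Grey points are the 17106 of 17766 tested genes that lie within 1.5 on both axes, and coloured points are the 9 genes by role. Pdgfa, Pdgfra and Pdgfb lie in the upper right, Pdgfc, Pdgfrb and Rgs5 in the lower left, and Cspg4 lies far to the upper left at -0.81 and 1.03.

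Genes of pericytes and vascular smooth muscle were lower more often than higher. Of 18 tested genes in this list of 21, which includes Pdgfrb, Rgs5 and Cspg4, 9 were lower in both pairs (24.0% of all genes tested), 1 was higher in both (22.8%), and 3 had an unadjusted p-value under 0.05, all lower (1.68%). With DESeq2, 1 lower and 1 higher gene had one. The genes in edgeR were Rgs5, Mcam and Higd1b, of which the latter pair were named after their values were seen. Mcam, an adhesion molecule of mural and endothelial cells, had 439 counts in NC-A, 415 in KD-A, 500 in NC-B and 410 in KD-B. Higd1b, a small mitochondrial protein enriched in pericytes, had 19 counts in NC-A, 7 in KD-A, 18 in NC-B and 9 in KD-B. The median log2 fold change was -0.17, against 0.00066 over all genes tested, and also -0.17 over the 15 genes other than Pdgfrb, Rgs5 and Cspg4. The list median was -0.30 in pair A and -0.06 in pair B. Without NC-A the median fold change was -0.03, and none of the list had an unadjusted p-value under 0.05. Acta2, the smooth muscle actin, had 88 counts in NC-A, 42 in KD-A, 30 in NC-B and 54 in KD-B, so its directions differed.

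The endothelial genes, on whose tubes pericytes sit, had the same median log2 fold change of -0.17 over 15 tested genes, of which 8 were lower in both pairs (24.0% of all genes tested), 2 were higher in both (22.8%) and none had an unadjusted p-value under 0.05 (3.91%). That median was -0.02 without NC-A. Kdr, a VEGF receptor that other retinal cells also express, had a log2 fold change of 0.07 (SE 0.08). Robo4, a receptor of endothelial cells, had -0.43 (SE 0.30). The summed TPM of the pericyte list relative to the endothelial list was 0.989 in NC-A, 0.767 in KD-A, 0.794 in NC-B and 0.813 in KD-B. NC-A stood above the other 3, which were within 0.05 of each other. That closeness depended on Rgs5, since without it the ratio was 0.693 in NC-A, 0.535 in KD-A, 0.558 in NC-B and 0.622 in KD-B. Kdr alone held a TPM of 168 in the endothelial sum of 319 in NC-A. The 5 tested fibroblast genes, some of which mural cells share, were all higher in KD-B than in NC-B, and Col1a1 had 220 counts in KD-B against 40 to 52 elsewhere. Cspg4 was highest in the same library, and the part of fibroblasts in it was not tested. Ogn, another gene of that list, had 404 counts in NC-A and 21 to 42 elsewhere.

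Genes that process or bind PDGFs were higher in both pairs for 6 of the 11 tested (22.8% of all genes tested) and lower in both for none. An unadjusted p-value under 0.05 was found for 4 of them, all higher (2.23%), and none passed after adjustment. Thbs1, a matrix protein that binds growth factors, had 241 counts in NC-A, 382 in KD-A, 305 in NC-B and 605 in KD-B, with a log2 fold change of 0.77 (SE 0.18, adjusted p = 0.989, edgeR). For Lrp1, an endocytic receptor that also modulates receptor beta, the log2 fold change was 0.33 (SE 0.11), and for Nrp1, a co-receptor, 0.20 (SE 0.08). Thbs1 and Lrp1 were named after their values were seen. Plau, a protease that opens PDGF-D, had 13, 15 and 18 counts in the first 3 libraries and 282 in KD-B. Without that library, 1 gene of the list had an unadjusted p-value under 0.05 among higher genes, and the median log2 fold change was 0.02 in place of 0.20. Sparc, a matrix protein that binds PDGF-B and the most abundant gene of the list, had a log2 fold change of 0.09 (SE 0.11). Hspg2, the basement membrane proteoglycan perlecan, had 1666 counts in NC-A and 553 to 903 elsewhere.

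Genes that act below the receptors had a median close to that of all genes, while single genes lay further away. The 28 genes of this list are mainly adaptors, kinases, phosphatases and ligases. Their median log2 fold change was 0.01, with 9 higher (22.8% of all genes tested) and 8 lower (24.0%) in both pairs. Ptprj, a receptor phosphatase that acts on receptor beta, was the 1 gene of the 28 with an unadjusted p-value under 0.05 (3.91% of all genes tested, so near the background), at a log2 fold change of 0.20 (SE 0.08, adjusted p = 0.989, edgeR). The most abundant gene, Pik3r1, a regulatory subunit of PI3-kinase, had -0.06 (SE 0.06). Shc1, an adaptor, had 546 counts in NC-A and 291 to 386 elsewhere, with log2 ratios of -0.93 in pair A and 0.35 in pair B.

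**Figure D4:**
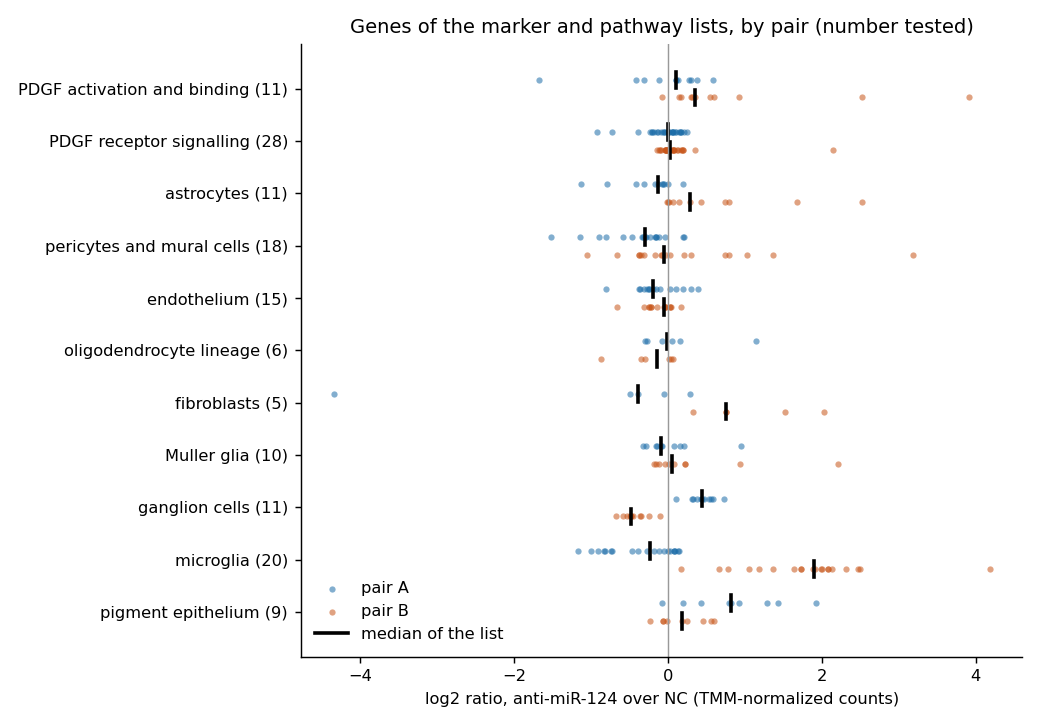
Points are genes of each list on the y axis (number tested in brackets), and the x axis gives the log2 ratio of anti-miR-124 to NC in pair A (blue) and pair B (orange), with list medians as black bars. Ganglion cell genes lie at medians of 0.43 (pair A) and -0.48 (pair B) and microglia genes at -0.23 and 1.90. The medians of the genes below the PDGF receptors are near 0 in both pairs, with single genes further away.

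The patterns of the receptors over the 4 libraries were compared with those of the list genes with a mean of at least 50 counts, as the root mean square difference of log2 CPM centred on each gene's mean. Among 159 genes, the 3 nearest to Pdgfra were Ptprj (0.03), Nrp1 (0.04) and Nrl (0.05), a transcription factor of rods. For Pdgfrb, among 158 genes, they were Flt1 (0.05) and Cldn5 (0.05), a VEGF receptor and a tight junction protein of endothelium, and Nr2e1 (0.06). These distances over 4 libraries are a description.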

How the data were processed

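Per the labels, reads of the 4 retinal libraries were mapped with HISAT2 and the build was mm9. The counting tool is not given in the sources used here. The values used are raw counts of reads per gene, deposited with gene lengths, and 4 RPKM columns were not used. Columns were assigned to groups by the eye in their names, and which pair is replicate 1 is not known. TPM was computed from counts and lengths, and pair ratios from TMM-normalized counts unless TPM is named. Counts were tested with edgeR 4.0.16 (R 4.3.3, TMM, default filter on low counts, no covariate, two-sided, threshold 0.05). A run on simulated counts lacked the lens, microglia and ganglion cell differences between these libraries, so it cannot vouch for the fit here. No source ties libraries to separate animals, so p-values measure the spread between these pools. Counting intervals are exact (Clopper-Pearson, 95%) and cover counting error only. Alternatives included DESeq2 1.42.0 and limma 3.58.1 (voom). Tables and figures were made with Python 3.11.15. The 9 genes and the lists were chosen with earlier results of these data known. Besides the 9, the list genes named were the most abundant and those with the highest and lowest fold change at a mean of at least 50 counts, the 3 nearest to each receptor, and, outside this rule, markers and genes with an unadjusted p-value under 0.05. The search for miR-124-3p seed matches was not run.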

Additional observations from a re-analysis of the deposited data

How the results depend on the processing

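In edgeR, 0 genes had an adjusted p-value under 0.05 with TMM and 694 an unadjusted one, and the count after adjustment was also 0 with 3 other scalings, with a mean of at least 10 counts, with limma voom and without the lens genes. It was 379 without a filter and 36 with DESeq2. Leaving out 1 library at a time gave 0 (without NC-A) to 256 (without KD-A), where the lone library of a group is assumed to vary like the others. A fit with the replicate block gave 0 genes after adjustment and 376 before. Libraries of 1 pair did not deviate together (correlation -0.17 across genes), but with 2 libraries per group this cannot decide whether the pools share mice. The number was not taken as a pairing because no source says that they do. With crossed numbers, a pairing chosen after seeing the data, 160 genes passed.

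The 9 fold changes kept their direction in all 10 settings that used every library, and 89 of 90 values stayed on the same side of the threshold. The exception was Rgs5, which passed without a filter at -0.35. Leaving out 1 library at a time reversed Pdgfb (-0.0208 without NC-A, -0.0019 without KD-B, range to 0.19), Pdgfd (0.21 without KD-B, 0.10 without NC-B, range from -0.33) and Cspg4 (-0.68 without KD-B, range to 0.89), and no other of the 9. The cause was not tested. For Pdgfb, Pdgfd and Pax2, with 47 to 152 counts per library, counting error is wide. The Cspg4 ratios lay beyond it in both pairs, and the Pax2 ratio did in pair B (95% counting interval 0.26 to 1.34).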
